A study of Danio rerio with 12 samples.

Results

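The claudin and tight junction genes of the zebrafish (Danio rerio) count table were taken by symbol: every gene whose symbol began with cldn, or with tjp followed by a digit, or with ocln. Upper and lower case were read alike, since gene symbols came in both forms. Described here are 41 of 22737 genes, 28 with lower-case and 13 with upper-case symbols. They comprise 34 claudins, 2 claudin domain genes (CLDND1 and cldnd1a), 3 tjp scaffolds and 2 occludins. In 3 cases a symbol belonged to 2 Ensembl genes, and these are told apart by their chromosome.

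Tight junctions close the space between neighbouring epithelial cells near their outer surface. Claudins are small proteins that cross the membrane several times and polymerize into the sealing strands, and the mix of claudins in a cell sets which ions can leak past it. Occludin travels with the strands, and the scaffolds of the tjp genes (ZO proteins) tie both to the actin cytoskeleton. In the zebrafish embryo the first epithelium is the enveloping layer, the flat outer sheet that spreads over the yolk during epiboly while attached at its margin to the yolk syncytial layer.

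RNA was counted in 12 libraries, 2 in each of 6 groups. Shield-stage embryos, collected at 6 hpf (hours post fertilization), were wild type of strain Tu, anp32e null of strain NHGRI, maternal null or paternal null, the latter pair labelled as crosses of Tu with NHGRI; Anp32e is a chaperone known for taking the histone variant H2A.Z out of nucleosomes. The fifth group was embryos at the earlier sphere stage labelled as injected with Anp32e protein, and the sixth was labelled as sperm of null fish, with no strain given for either. Strain and genotype cannot be told apart between null and wild type, nor between either cross and wild type. Between the crosses, the strain of a parent cannot be told apart from its genotype. Stage and injection cannot be told apart either, as no untreated sphere embryos were analysed here. The number of embryos in a sample is not given in the sources used here.

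Totals ran from 13.5 to 47.7 M counts, and levels are given in CPM, in which each gene's count is taken relative to the total of its own library. The targeted gene stood at 2285 and 3172 CPM (wild type), 81.2 and 80.5 (null), 1212 and 1226 (maternal null), 1420 and 1413 (paternal null), 979 and 986 (injected) and 0.231 and 0.310 (labelled sperm). In 4 groups (null, maternal null, paternal null and injected) the pair of libraries differed by little more than counting noise, with a chi-square per degree of freedom between 1.05 and 1.17. It was 95.2 for the wild-type pair and 42.9 for the pair labelled sperm. Each of these near-identical pairs was therefore also summed to 1 sample in a second fit. "Rose" and "fell" are used below only of genes past a false discovery rate of 0.05 in the same direction in both fits, and "higher" or "lower" of calls made only with every library as a replicate. Nothing in the labels says that replicates came from separate clutches, so p-values measure the spread between these samples, which may be technical. The oocyte and maternal markers go against the label of the libraries labelled null sperm. Of these, 9 of 9 rose there against null embryos, where 30.7% of all genes rose, to a sum of 8853 and 9861 CPM. The 16 sperm and flagellum markers summed to 68.9 and 72.2 CPM against 149.6 and 145 CPM in null embryos. That difference in the sum was due to 1 gene, odf2b, at 27.7 and 25.6 CPM against 132 and 128. The other 15 summed to 41.3 and 46.6 CPM against 17.4 and 16.7. Of all 16 markers 13 were tested, and 8 rose and 2 fell, which were odf2b itself and CCDC39. That is 61.5% and 15.4%, beside 30.7% and 31.8% of all genes. The sperm markers that rose stayed at low levels, the highest being spata22 at 12.6 and 11.6 CPM in these libraries. What these libraries hold was not tested.

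Across the series the 41 genes took between 0.0643% and 0.46% of a library. A level of at least 1 CPM in both libraries was reached by 24 of them for wild type, 26 for null, 25 each for maternal null, paternal null and injected embryos, and 20 for the libraries labelled sperm. The same 15 genes reached it in every group, and 8 reached it in no group. Counts per gene also scale with transcript length, so levels are compared here within a gene and not between genes. Differences in bulk RNA do not tell fewer cells of a type from less RNA per cell.

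**Figure D1:**
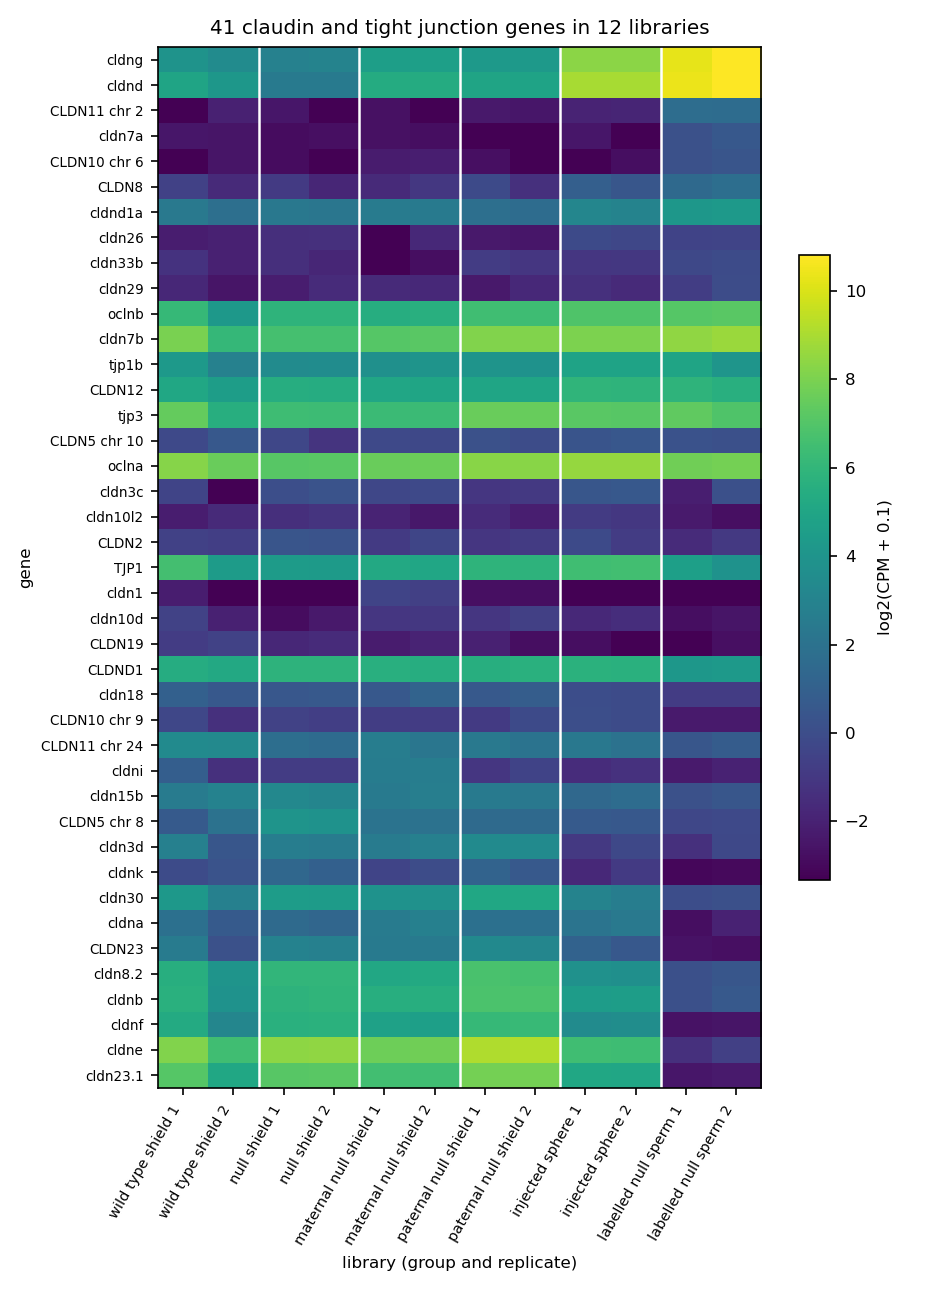
Levels of the 41 genes (rows) in the 12 libraries (columns), coloured by log2(CPM + 0.1), with rows ordered from the largest excess in the libraries labelled sperm over the shield libraries to the largest deficit. cldnd and cldng are highest in the injected embryos and in the libraries labelled sperm, at 327 to 1793 CPM, while cldne, cldnf and cldn23.1 are below 1 CPM only in the libraries labelled sperm.

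For 8 claudins the levels followed a similar course, and these are described together as a grouping made from the values themselves: cldne, cldnf, cldnb, cldn23.1, cldn8.2, cldn30, cldn3d and CLDN23. They were highest in paternal null, lower in the sphere embryos than in any of the null, maternal null and paternal null libraries, and at most 1.42 CPM in the libraries labelled sperm. They varied strongly between the 2 wild-type libraries, and wild-type replicate 2 lay below both sphere libraries for cldnf, cldnb and CLDN23. cldne, a claudin needed for normal epiboly in zebrafish, stood at 281 and 89.0 CPM (wild type), 337 and 346 (null), 208 and 215 (maternal null), 563 and 576 (paternal null), 87.7 and 86.3 (injected) and 0.294 and 0.542 (labelled sperm). cldnf, its neighbour on chromosome 15, stood at 39.4 and 8.73 CPM (wild type), 51.0 and 51.5 (null), 26.7 and 24.8 (maternal null), 70.7 and 73.8 (paternal null), 11.1 and 11.97 (injected) and 0.0629 and 0.0774 (labelled sperm). Both genes were highest in paternal null and had the 2 wild-type libraries on either side of maternal null.

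cldnb, known in zebrafish from surface epithelium and the lateral line primordium, stood at 50.5 and 14.6 CPM (wild type), 56.8 and 59.8 (null), 46.4 and 45.6 (maternal null), 110.1 and 111 (paternal null), 22.4 and 22.8 (injected) and 1.01 and 1.42 (labelled sperm). cldn23.1 stood at 133 and 34.1 CPM (wild type), 143 and 146 (null), 90.6 and 90.1 (maternal null), 227 and 235 (paternal null), 34.2 and 33.1 (injected) and 0.0839 and 0.103 (labelled sperm). In both genes paternal null lay above every other group, and wild-type replicate 1 lay a little below null while replicate 2 lay at or below the level of the injected embryos.

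cldn8.2 stood at 46.6 and 16.0 CPM (wild type), 62.8 and 62.0 (null), 34.9 and 38.3 (maternal null), 107 and 99.3 (paternal null), 14.3 and 12.9 (injected) and 1.01 and 1.29 (labelled sperm). cldn30 stood at 18.7 and 7.02 CPM (wild type), 22.2 and 21.7 (null), 14.5 and 13.9 (maternal null), 33.9 and 34.4 (paternal null), 7.86 and 6.27 (injected) and 0.902 and 1.01 (labelled sperm). The order of the groups was the one seen for cldne: paternal null, then null, then maternal null, with the wild-type pair spread across the last.

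cldn3d and CLDN23 were also highest in paternal null. cldn3d, of the family of claudin-3, a sealing claudin in mammals, stood at 7.004 and 1.26 CPM (wild type), 6.26 and 5.71 (null), 5.79 and 6.999 (maternal null), 10.9 and 10.8 (paternal null), 0.416 and 0.740 (injected) and 0.294 and 0.749 (labelled sperm). CLDN23 stood at 5.81 and 1.04 CPM (wild type), 7.59 and 7.12 (null), 5.62 and 5.43 (maternal null), 10.4 and 8.72 (paternal null), 2.04 and 1.39 (injected) and 0.0629 and 0.0516 (labelled sperm). In both, the maternal null libraries lay next to the higher wild-type library, and the 2 wild-type libraries spanned more than 4 CPM.

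**Figure D2:**
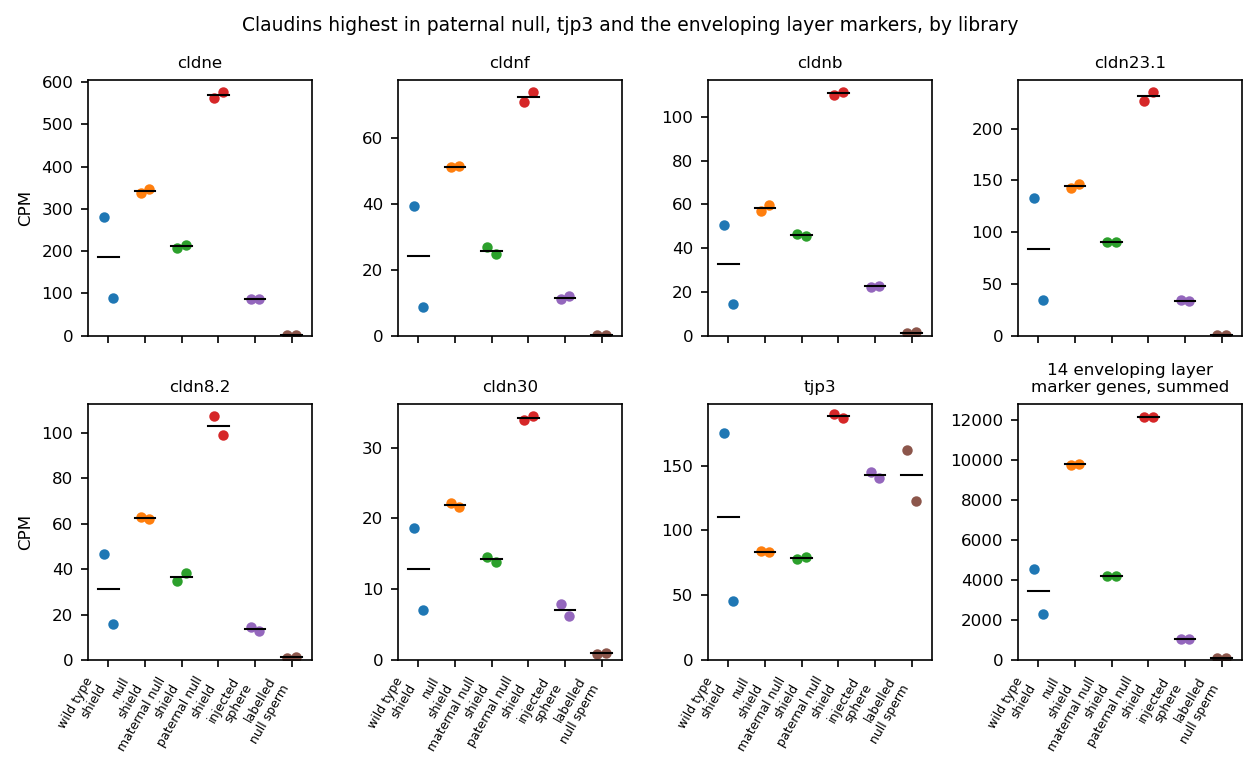
CPM in each library (points; 2 libraries per group, horizontal lines at the mean, linear axes from 0) of 6 of these claudins and tjp3, with the sum of 14 enveloping layer marker genes in the last panel. The 2 wild-type points lie far apart in every panel, and the paternal null points are the highest of the shield groups, at 563 and 576 CPM for cldne.

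The wild-type pair sets what can be said about these genes. Over the 30 members with at least 20 counts in the pair, replicate 1 was above replicate 2 by a median of 2.42-fold, and 16 of them (53.3%) differed by more than 2-fold in that direction, against a median of 1.23-fold and 20.2% over 17620 genes. The 14 enveloping layer markers (keratins, annexins, agr1, AGR2 and icn) summed to 4552 and 2321 CPM in wild type, a ratio of 1.96. Their sums were 9789 and 9819 CPM in null, 4187 and 4193 in maternal null, 12200 and 12170 in paternal null, 1035 and 1037 in injected embryos, and 95.1 and 94.7 in the libraries labelled sperm, where 1 of the 14 (agr1) had no count. Paternal null was the highest group, and the libraries labelled sperm the lowest, for the marker sum and for these claudins alike. The exception was cldn3d, whose lowest library was among those labelled sperm but overlapped the injected embryos. These claudins were grouped for being highest in paternal null and low in the libraries labelled sperm. Their match with the marker sum at both ends therefore followed from the grouping and is a description. The markers did not all follow their sum. krt4, krt5, krt8, krt18a.1, krt92 and cyt1 were highest in paternal null. By contrast krt17, krt99, cyt1l, agr1, anxa1b and anxa1c were highest in null, as in krt99 at 619 and 620 CPM against 400 and 400 in paternal null. Among shield groups icn and AGR2 were highest in maternal null. The part of enveloping layer content in the claudin levels was not tested.

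cldnd and cldng had the opposite course, low at the shield stage and highest in the libraries labelled sperm. cldnd stood at 31.0 and 17.5 CPM (wild type), 5.41 and 5.47 (null), 41.6 and 41.4 (maternal null), 30.4 and 28.9 (paternal null), 493 and 488 (injected) and 1350 and 1748 (labelled sperm). cldng stood at 15.4 and 11.02 CPM (wild type), 7.24 and 7.78 (null), 24.3 and 25.2 (maternal null), 19.1 and 19.0 (paternal null), 327 and 327 (injected) and 1261 and 1793 (labelled sperm). The pooled levels of the 6 groups had the same order in both genes, with null lowest and maternal null highest among the shield groups; wild type and paternal null overlapped for cldnd only.

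Together cldnd and cldng took 2.8% (95% Wilson interval 2.64 to 2.96) and 4.43% (4.02 to 4.88) of the counts of all 41 genes in the wild-type libraries, and 1% (0.899 to 1.12) and 1.04% (0.925 to 1.17) in null. The share was 5.88% (5.57 to 6.21) and 5.83% (5.56 to 6.12) in maternal null and 2.21% (2.08 to 2.35) and 2.13% (2.01 to 2.26) in paternal null. It reached 37.8% (37.3 to 38.2) and 37.8% (37.4 to 38.3) in injected embryos and 71.5% (71.3 to 71.7) and 77% (76.8 to 77.2) in the libraries labelled sperm. These intervals cover counting error only, and the oocyte and maternal markers are given beside them, with a sum of 168 and 116 CPM (wild type), 76.0 and 74.7 (null), 149.6 and 149 (maternal null), 199 and 197 (paternal null), 1136 and 1134 (injected) and 8853 and 9861 (labelled sperm). Sum and share were both highest in the libraries labelled sperm, next in injected embryos and lowest in null. Paternal null had the highest sum of the shield groups, with a share below wild type and maternal null. The wild-type library with the higher sum had the lower share. The part of maternal RNA in these claudin levels was not tested.

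Null embryos differed from wild type at 10 of the 34 members that passed the filter on low counts, 5 higher and 5 lower in the fit of every library; the other 7 were too low to test. That is 14.7% of them in each direction, where 16.8% and 19.4% of all 19166 genes tested were called higher and lower. In both fits 1 rose (CLDN5 on chromosome 8) and 1 fell (cldnd), beside 2.45% and 2.85% of all genes. The median log2 change of the members was 0.12 and that of all genes -0.03. The members were thus called about as often as other genes.

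cldnd fell by 2.104 on the log2 scale (SE 0.20; adjusted p = 0.00083 with every library and 0.028 with pairs summed, edgeR), with both null libraries below both wild-type libraries. CLDN5 on chromosome 8 (ENSDARG00000043716), one of a pair of genes of the family of claudin-5, the claudin of the blood-brain barrier in mammals, had 1.51 and 3.92 CPM (wild type), 15.6 and 14.6 (null), 4.001 and 3.86 (maternal null), 2.83 and 2.71 (paternal null), 1.496 and 1.39 (injected) and 0.713 and 0.774 (labelled sperm). It rose in null by a log2 change of 2.57 (SE 0.42; adjusted p = 0.005 and 0.004 in the fits, edgeR). The change was 1.86 without wild-type replicate 1 and 3.46 without replicate 2. The maternal and paternal null libraries lay within or at the edge of the wild-type range. The other CLDN5, on chromosome 10, stayed between 0.330 and 1.40 CPM in every library.

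**Figure D3:**
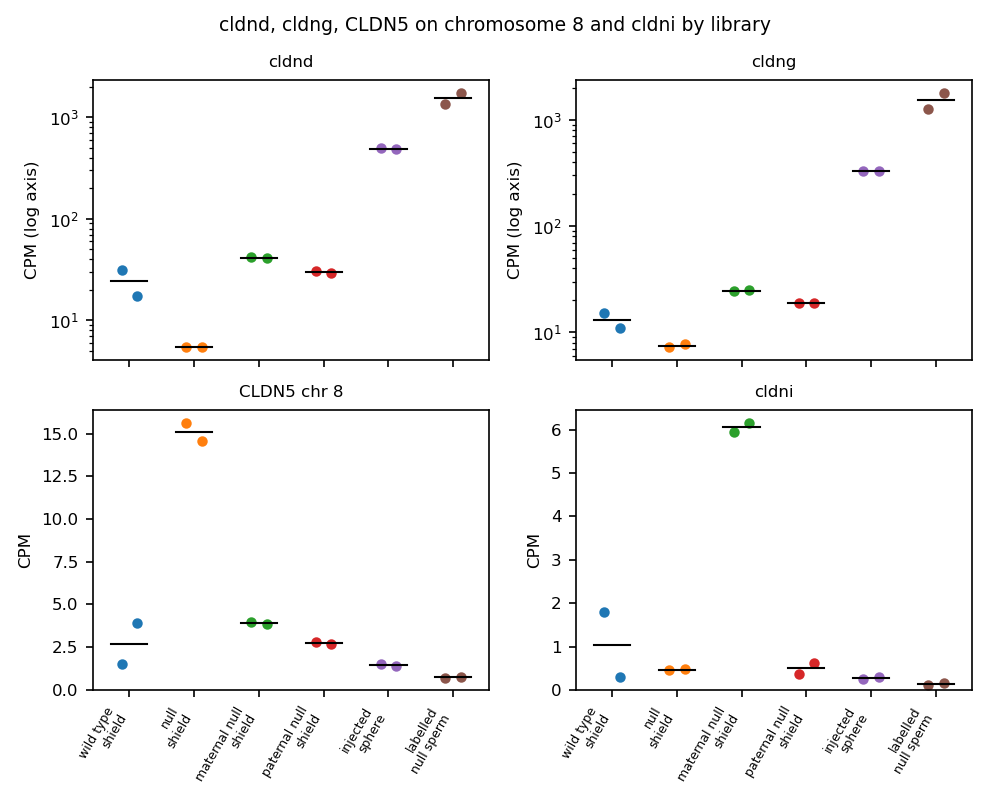
CPM in each library (points; 2 per group, horizontal lines at the mean) of cldnd and cldng on log axes, and of CLDN5 on chromosome 8 and cldni on linear axes from 0. Null is the lowest shield group for cldnd and the highest for CLDN5, at 15.6 and 14.6 CPM, and maternal null is the highest for cldni, at 5.95 and 6.15 CPM.

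The other 8 calls of null against wild type were made only with every library as a replicate. cldng was lower by a log2 change of -0.78 (SE 0.13; adjusted p = 0.0055, and 0.66 with pairs summed, edgeR). CLDN11 on chromosome 24 (ENSDARG00000030723), of the family of claudin-11 of myelin and Sertoli cells in mice, had 10.9 and 10.1 CPM (wild type), 3.31 and 2.97 (null), 6.22 and 4.58 (maternal null), 5.24 and 4.13 (paternal null), 4.86 and 3.96 (injected) and 1.26 and 1.63 (labelled sperm). Its 2 wild-type libraries were close to each other and above every other library, and it was lower in null by a log2 change of -1.71 (SE 0.21; adjusted p = 0.0017, and 0.15 with pairs summed). cldn10d was lower too, at 0.0389 and 0.0943 CPM in null against 0.597 and 0.148 in wild type. It had 3 counts in null against 17 in wild type, 15 of them in replicate 1. In pooled CPM it was 6.88-fold lower (exact 95% interval 1.99 to 36.6, counting error only). Its log2 change of -2.56 became -1.23 (adjusted p = 0.47) without wild-type replicate 1.

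Higher in null were CLDN2, CLDN12, cldnk and CLDND1, all without a call when pairs were summed. CLDN2, whose mammalian form makes cation pores in leaky epithelia, had 0.557 and 0.518 CPM (wild type), 1.25 and 1.13 (null), 0.433 and 0.679 (maternal null), 0.378 and 0.459 (paternal null), 0.790 and 0.479 (injected) and 0.231 and 0.413 (labelled sperm). cldnk, a claudin of myelinating glia in zebrafish, had 0.836 and 1.11 CPM (wild type), 2.53 and 1.89 (null), 0.649 and 0.891 (maternal null), 2.13 and 1.46 (paternal null), 0.208 and 0.435 (injected) and 0.0210 and 0.0258 (labelled sperm). CLDND1, a claudin-domain protein outside the claudins proper, had 42.7 and 37.4 CPM (wild type), 55.8 and 56.5 (null), 48.6 and 45.3 (maternal null), 46.7 and 50.5 (paternal null), 51.4 and 49.3 (injected) and 17.6 and 19.1 (labelled sperm). Null lay above both wild-type libraries in each of these, with a log2 change of 1.19 (SE 0.30) for CLDN2, 1.27 (SE 0.33) for cldnk, 0.52 (SE 0.10) for CLDND1 and 0.67 (SE 0.13) for CLDN12. CLDN12 overlaps 6 other genes of the table, and the strand setting of the counting is not given in the sources used here.

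None of the 8 claudins highest in paternal null was called in null against wild type. cldne had a log2 change of 0.97 (SE 0.40; adjusted p = 0.10, edgeR), cldnf of 1.16 (SE 0.51; adjusted p = 0.12) and cldnb of 0.91 (SE 0.42; adjusted p = 0.13), each with both null libraries above both wild-type libraries. The share of all genes called is not given for fits that left out 1 library, so their counts are not results about the members. Without wild-type replicate 1 or replicate 2 the number of members called was above 10, with the single remaining wild-type library assumed to vary like the near-identical pairs. Without null replicate 1 or replicate 2 it was 3 and 4, and cldnd and CLDN5 on chromosome 8 were called in each of these 4 fits. With only the wild-type and null libraries CLDN5 had an adjusted p of 0.058.

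**Figure D4:**
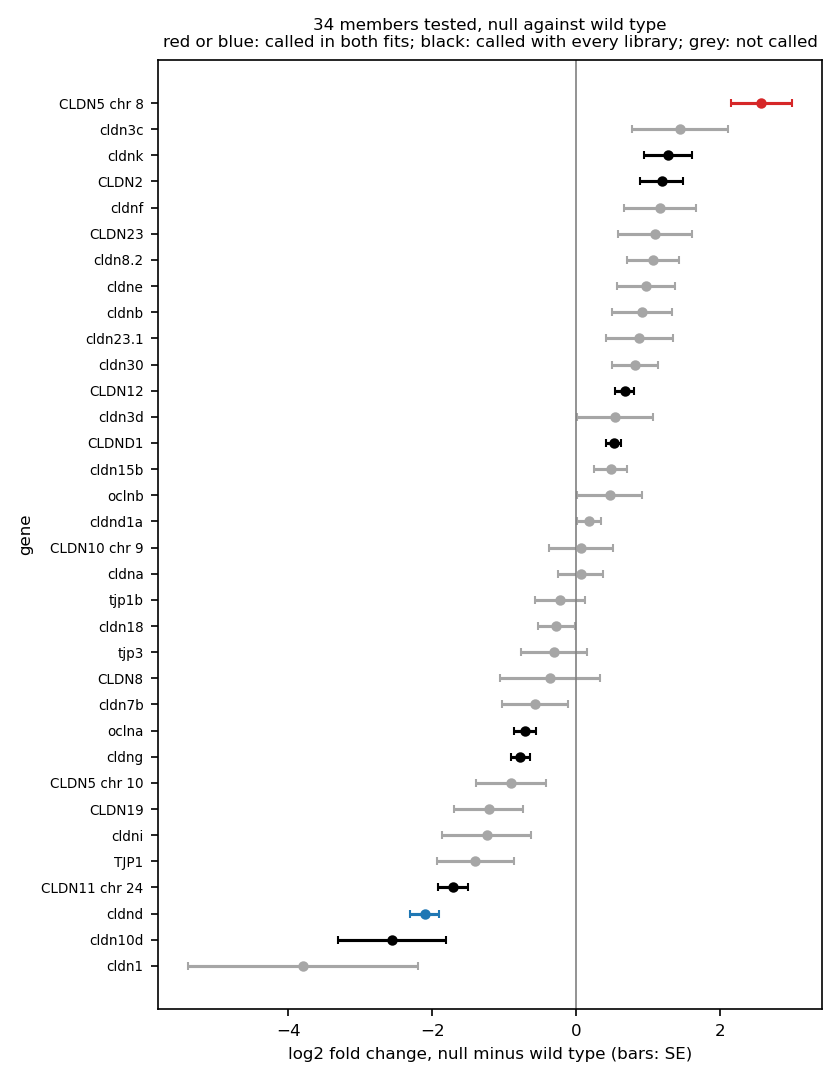
Log2 fold change of null against wild type (points, with SE as bars) of the 34 members tested. CLDN5 on chromosome 8 (2.57, red) and cldnd (-2.104, blue) were called in both fits, the 8 black points only with every library, and the grey points in neither.

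Maternal null embryos differed from wild type at 4 of 34 members, 3 higher (8.82%, where 3.33% of all genes were called higher) and 1 lower (2.94%, where 2.67% of all genes were called lower). cldni rose: it had 1.79 and 0.296 CPM (wild type), 0.467 and 0.472 (null), 5.95 and 6.15 (maternal null), 0.378 and 0.626 (paternal null), 0.249 and 0.305 (injected) and 0.105 and 0.155 (labelled sperm). Both maternal null libraries exceeded all other libraries, by a log2 change of 2.43 over wild type (SE 0.47; adjusted p = 0.034 and 0.039 in the fits, edgeR). It was the 1 member to rise in both fits, where 0.381% of all genes rose and 0.214% fell. No member fell. At an unadjusted p under 0.05 the fit with pairs summed had 0 lower and 3 higher, and DESeq2 called 1 lower and 4 higher at an adjusted p under 0.05. The share of all genes is not given for the unadjusted and DESeq2 counts, so they are not results about the members. The call of cldni was lost without maternal null replicate 1 (adjusted p = 0.2) or replicate 2 (0.22) and with only these 2 groups (0.29), at log2 changes of 2.48, 2.44 and 2.47, and the log2 change was 4.24 without wild-type replicate 1. Without a maternal null library no member was called, though some were higher or lower at an unadjusted p under 0.05. More members were called without either wild-type library, in fits with 1 wild-type library left.

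The other calls in maternal null were made only with every library. cldng was higher by a log2 change of 0.95 (SE 0.13; adjusted p = 0.012), and CLDN11 on chromosome 24 was lower by -0.94 (SE 0.20; adjusted p = 0.046). cldna, which lies beside cldne and cldnf, had 3.58 and 1.48 CPM (wild type), 2.84 and 2.45 (null), 5.84 and 7.13 (maternal null), 3.59 and 3.59 (paternal null), 4.20 and 5.22 (injected) and 0.0419 and 0.155 (labelled sperm). Maternal null was thus the highest group for cldna while its neighbours cldne and cldnf were highest in paternal null. The log2 change of cldna from wild type was 1.35 (SE 0.30), and 2.06 without wild-type replicate 1. Its call was at the edge of the threshold (adjusted p = 0.05 after rounding, and 0.99 with pairs summed, edgeR).

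Paternal null embryos differed from wild type at 3 of 34 members, 2 higher (5.88%, where 4.7% of all genes were called higher) and 1 lower (2.94%, where 2.32% of all genes were called lower). The higher members were cldn8.2 with a log2 change of 1.76 (adjusted p = 0.04, edgeR) and cldn30 with a log2 change of 1.43 (SE 0.32; adjusted p = 0.049). Without wild-type replicate 1 these changes were 2.57 and 2.17. The lower member was CLDN11 on chromosome 24 with -1.16 (SE 0.20; adjusted p = 0.026). None was called when pairs were summed, where 0.203% of all genes rose and 0.0261% fell in both fits. At an unadjusted p under 0.05 that fit had 8 members higher and 0 lower, and DESeq2 called 7 higher and 1 lower. The share of all genes is not given for these counts, so they are not results about the members. Without either paternal null library no member was called, though some were higher or lower at an unadjusted p under 0.05. Leaving out either wild-type library raised the number called, in fits with 1 wild-type library left. Of the 14 enveloping layer markers 12 were higher as well, and 3 of them (krt99, cyt1l and agr1) rose.

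The maternal and the paternal null are reciprocal crosses of the same pair of strains, so the strain and the genotype of the mother cannot be told apart between them. Between them 4 of 34 members were called, 3 higher in maternal null (8.82%, where 3.66% of all genes were called higher) and 1 lower (2.94%, where 5.61% of all genes were called lower). cldni rose 11.9-fold in pooled CPM in maternal over paternal null. Its log2 change in the fit was 3.59 (SE 0.52, adjusted p = 0.011 and 0.018 in the fits, edgeR). Of all genes 0.323% rose and 0.198% fell in both fits. cldn1, of the family of the epidermal barrier claudin of mammals, was higher with every library as a replicate: it had 0.649 and 0.551 CPM in maternal null, 0.0472 and 0.0417 in paternal null, 0.119 and 0 in wild type, and no count in null, injected embryos or the libraries labelled sperm. cldnd1a was higher and oclna lower in maternal null, at log2 changes of 0.84 (SE 0.17; adjusted p = 0.030) and -0.68 (SE 0.16; adjusted p = 0.044). cldne had a log2 change of -1.41 (SE 0.40; adjusted p = 0.079), and the enveloping layer markers were lower in 12 of 14 and higher in 2. In each of the 4 fits that left out a maternal or a paternal null library the number of members called was 0, with 3 or 4 higher and 4 to 6 lower at an unadjusted p under 0.05, and the adjusted p of cldni was 0.094 to 0.13 at log2 changes of 3.26 to 4.002. With only these 4 libraries 21 were called, in a fit of near-identical pairs alone. Its spread was little more than counting noise, and the share of all genes called in it is not given here.

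The occludins were present in every library. oclna stood at 298 and 188 CPM (wild type), 140.5 and 146 (null), 193 and 195 (maternal null), 316 and 316 (paternal null), 385 and 383 (injected) and 216 and 235 (labelled sperm). oclnb stood at 71.2 and 18.6 CPM (wild type), 59.3 and 57.7 (null), 44.9 and 48.6 (maternal null), 87.8 and 85.6 (paternal null), 123 and 119 (injected) and 138 and 145 (labelled sperm). oclna was lower in null than in wild type with every library (log2 change -0.71, SE 0.16; adjusted p = 0.014, and 0.71 with pairs summed), whereas oclnb in null lay inside the wild-type range.

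TJP1 and tjp1b encode ZO-1, the scaffold that gathers at the margin of the enveloping layer during epiboly. TJP1 stood at 97.6 and 21.4 CPM (wild type), 21.5 and 20.9 (null), 36.8 and 33.3 (maternal null), 58.3 and 55.8 (paternal null), 90.5 and 93.4 (injected) and 25.3 and 14.5 (labelled sperm). tjp1b stood at 20.2 and 7.32 CPM (wild type), 11.2 and 11.6 (null), 13.4 and 15.6 (maternal null), 15.7 and 14.8 (paternal null), 29.6 and 29.2 (injected) and 30.3 and 16.7 (labelled sperm). Wild-type replicate 1 was 4.55-fold above replicate 2 for TJP1, and neither gene was called in the 4 comparisons of shield groups that were made (TJP1 in null against wild type, adjusted p = 0.081, edgeR). Null was not compared with maternal or paternal null.

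tjp3 encodes ZO-3, which zebrafish need for the barrier of the embryonic epidermis. It stood at 175 and 45.7 CPM (wild type), 84.0 and 83.2 (null), 77.7 and 79.1 (maternal null), 189.9 and 187 (paternal null), 145 and 140.2 (injected) and 162 and 123 (labelled sperm). Unlike cldne, tjp3 remained above 120 CPM in the libraries labelled sperm, and it was not called in any of the 6 comparisons.

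Sphere embryos injected with Anp32e protein differed from wild-type shield embryos at 22 of the 40 members tested in a fit of all 12 libraries, 7 higher (17.5%, where 31.6% of all 21251 genes were called higher) and 15 lower (37.5%, where 32.1% of all genes were called lower). In both fits 2 rose and 6 fell, 5% and 15% of the members, beside 16.8% and 13.5% of all genes. The members that rose were cldnd and cldng, and those that fell were CLDN11 on chromosome 24, cldn15b, CLDN19, cldn3d, cldn8.2 and cldnk. With no scaling beyond the total counts the median of all genes moved from -0.01 to 0.32 (log2), and that of the members from -0.11 to 0.17, so the values here are relative to the scaled median. With only these 2 groups in the fit, and so without the libraries labelled sperm, 10 were called.

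cldng rose by a log2 change of 4.23 (SE 0.19, adjusted p = 2e-07 and 0.00046 in the fits, edgeR). cldnd rose by a log2 change of 3.96 (SE 0.21, adjusted p = 3.9e-07 and 0.00051, edgeR). In pooled CPM, without the scaling of the fit, cldng was 23.6-fold and cldnd 18.7-fold above wild type. For these genes both injected libraries lay above both wild-type libraries by far more than either pair spread. Of the 9 oocyte and maternal markers 8 rose in the same comparison, while 12 of 14 enveloping layer markers fell.

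cldn3d fell by 3.28 on the log2 scale (SE 0.63; adjusted p = 0.0011 and 0.023) and cldn8.2 by 1.57 (SE 0.31; adjusted p = 0.0013 and 0.049). Both sizes rest on wild-type replicate 1: without it the log2 changes were -1.65 for cldn3d and -0.76 for cldn8.2. CLDN19, of the family of a claudin of the kidney tubule in mammals, had 0.478 and 0.592 CPM (wild type), 0.195 and 0.236 (null), 0.108 and 0.170 (maternal null), 0.142 and 0.0417 (paternal null), 0.0416 and 0 (injected) and 0 and 0.0516 (labelled sperm). cldn15b, of the family of the intestinal cation-pore claudin of mammals, had 5.73 and 7.62 CPM (wild type), 9.65 and 8.49 (null), 5.35 and 6.53 (maternal null), 5.48 and 4.97 (paternal null), 2.66 and 3.09 (injected) and 1.03 and 1.29 (labelled sperm). The wild-type pair was close together for both of these, unlike for cldn3d and cldn8.2.

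cldn15b fell in injected embryos by 1.61 on the log2 scale (SE 0.24; adjusted p = 0.00023 and 0.034), and CLDN11 on chromosome 24 by 1.65 (SE 0.21; adjusted p = 7.7e-05 and 0.024). CLDN19 fell on the strength of 1 count in the injected libraries, 24.3-fold below wild type (exact 95% interval 3.89 to 1009, counting error only). cldne, cldnf, cldnb, cldn23.1, CLDN23 and cldn30 were lower only with every library as a replicate, cldne by a log2 change of -1.43 (SE 0.34; adjusted p = 0.0039, and 0.086 with pairs summed). Without wild-type replicate 1, cldnb and CLDN23 changed sign, to 0.11 and 0.21. In the same fit cldnf had -0.13 (adjusted p = 0.45), and cldne, cldn23.1 and cldn30 had -0.56, -0.55 and -0.52. cldn7b, whose mammalian relative lies along the sides of epithelial cells, did not follow that course: it had 252 and 67.2 CPM (wild type), 101 and 101 (null), 134 and 147 (maternal null), 282 and 286 (paternal null), 255 and 260.5 (injected) and 358 and 412 (labelled sperm).

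The libraries labelled null sperm were compared with null shield embryos, the group that shares their labelled genotype; tissue, stage and what these libraries hold cannot be told apart. They differed at 32 of 40 members, 13 higher (32.5%, where 41.3% of all genes were called higher) and 19 lower (47.5%, where 39.1% of all genes were called lower). In both fits 8 rose and 18 fell, 20% and 45% of the members, beside 30.7% and 31.8% of all genes. Some of those that rose, described below, passed the filter on low counts only through the libraries labelled sperm. The count of members that rose is therefore a description. The 2 labelled libraries differed from each other beyond counting noise, as in cldnd with 1350 and 1748 CPM, but by less than they differed from the embryos for the members that rose or fell.

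The members that rose were cldnd, cldng, cldn7b, cldnd1a, CLDN8, cldn7a, CLDN10 on chromosome 6 and CLDN11 on chromosome 2. cldnd rose 281-fold in pooled CPM (scaled log2 change 8.08, SE 0.25, adjusted p = 6.5e-10 and 3.2e-06 in the fits, edgeR). cldng rose 200.4-fold in pooled CPM (scaled log2 change 7.60, SE 0.22). cldnd1a, the other claudin-domain gene, had 5.09 and 3.48 CPM (wild type), 4.90 and 4.57 (null), 5.84 and 5.56 (maternal null), 3.45 and 3.05 (paternal null), 8.77 and 7.88 (injected) and 17.9 and 19.1 (labelled sperm). CLDN8, of the family of a barrier claudin of the collecting duct in mammals, had 0.557 and 0.222 CPM (wild type), 0.428 and 0.189 (null), 0.216 and 0.382 (maternal null), 0.803 and 0.292 (paternal null), 1.83 and 1.26 (injected) and 2.79 and 3.36 (labelled sperm). CLDN8 lies over cldn8.2 in the annotation, and cldn8.2 fell to 1.01 and 1.29 CPM in these libraries, so the overlapping pair went in opposite directions.

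Of the claudins that rose, 3 were at the limit of detection in embryos. These passed the filter on low counts only through the libraries labelled sperm, where they were high. Their rise therefore followed from the filter and is a description. CLDN11 on chromosome 2 (ENSDARG00000020031) had 0 and 0.148 CPM (wild type), 0.0778 and 0 (null), 0.0541 and 0 (maternal null), 0.0945 and 0.0835 (paternal null), 0.166 and 0.174 (injected) and 3.17 and 3.10 (labelled sperm). CLDN10 on chromosome 6 (ENSDARG00000058937) had 0 and 0.0739 CPM (wild type), 0.0389 and 0 (null), 0.108 and 0.127 (maternal null), 0.0472 and 0 (paternal null), 0 and 0.0435 (injected) and 1.03 and 1.24 (labelled sperm). cldn7a had 0.0796 and 0.0739 CPM (wild type), 0.0389 and 0.0472 (null), 0.0541 and 0.0424 (maternal null), 0 and 0 (paternal null), 0.0831 and 0 (injected) and 1.03 and 1.37 (labelled sperm). Over the pooled counts the libraries labelled sperm exceeded null embryos 73.5-fold for CLDN11 (exact 95% interval 20.2 to 610 from 2 counts in null), 52.6-fold for CLDN10 (9.23 to 2101 from 1 count) and 27.7-fold for cldn7a (7.47 to 232 from 2 counts), all for counting error only.

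The 18 that fell included the 8 claudins grouped above. Since these were grouped partly for their low levels in these libraries, this is a description. cldn23.1 was 1561-fold, cldne 842-fold and cldnf 737-fold lower than in null embryos. cldn18, of the family of the stomach and lung claudin of mammals, had 1.95 and 1.40 CPM (wild type), 1.32 and 1.41 (null), 1.41 and 2.16 (maternal null), 1.46 and 1.67 (paternal null), 0.914 and 0.827 (injected) and 0.461 and 0.465 (labelled sperm). CLDN10 on chromosome 9, the other of that name, had 0.716 and 0.296 CPM (wild type), 0.584 and 0.519 (null), 0.487 and 0.467 (maternal null), 0.425 and 0.793 (paternal null), 0.956 and 0.827 (injected) and 0.105 and 0.103 (labelled sperm). The 2 CLDN10 genes, and likewise the 2 CLDN11 genes, thus moved in opposite directions in this comparison. Of the enveloping layer markers 13 of 14 fell too, and of the yolk syncytial layer markers 13 of 13.

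Neighbouring genes did not always move together. Of the members, 17 lie in 6 groups of genes less than 100 kb apart. The largest group holds cldn3c, cldn3d, cldnb, cldn29, cldnd and cldn30 within 56.7 kb of chromosome 21 (25702689 to 25759363, headed Zv10). cldnd lies between cldn29 and cldn30, and cldnd and cldn29 both had their highest levels in the libraries labelled sperm. For cldn29 that level was low, at 0.482 and 0.878 CPM against 0.291 and 0.218 in injected embryos, its next highest group. cldnb, on the other side of cldn29, and cldn30 had their highest levels in paternal null. In null against wild type cldnd fell while cldnb, cldn30 and cldn3d were not called.

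**Figure D5:**
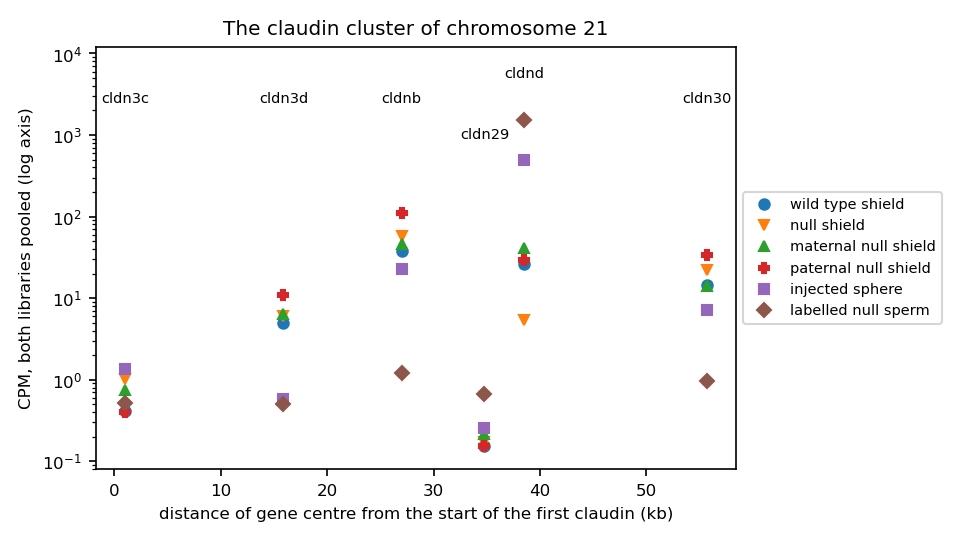
Pooled CPM per group (symbols, log axis) of the 6 claudin genes of the chromosome 21 cluster, against the distance in kb from the start of the first of them. cldnd runs from 5.44 CPM in null to 1529 CPM in the libraries labelled sperm, while cldnb and cldn30 in the same cluster run from 111 and 34.2 CPM in paternal null to 1.19 and 0.949 CPM in the libraries labelled sperm.

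cldne, cldnf and cldna span 18.6 kb of chromosome 15, in that order, with no other gene of the table between them. cldn23.1 and CLDN23 span 6.78 kb of chromosome 10, and both were highest in paternal null and lowest in the libraries labelled sperm. The pooled level of wild type was above that of maternal null for cldn23.1 (98.6 against 90.4 CPM) and below it for CLDN23 (4.14 against 5.51). For both genes, however, the wild-type libraries lay on either side of maternal null. In the fit the log2 change of maternal null from wild type was 0.20 for cldn23.1 and 0.67 for CLDN23, neither called. In all, 9 members overlap another gene of the table, among them cldne with SH2B2, cldn7b with fgf11b and cldn15b with NAA38, and none had the same counts as another gene in every library. The 9 members with no values or only part of their values given here (cldn1, cldn10d, cldn10l2, CLDN12, cldn26, cldn29, cldn33b, cldn3c and CLDN5 on chromosome 10) stayed below 1.5 CPM in every library, apart from CLDN12 at 22.9 to 60.8 CPM.

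Genes that work beside the claudins were counted from lists of known components. Of 59 symbols of tight junction partners (marvel-domain and angulin proteins, cingulin, the Crumbs and Par polarity complexes, angiomotins) 29 matched a gene symbol of the table, and 28 were tested. A partner held there under another symbol was not counted. In null against wild type 1 was higher and 2 lower (3.57% and 7.14%, where 16.8% and 19.4% of all genes were called higher and lower). The partners were thus called less often than other genes. The higher one was amotl2b with a log2 change of 0.82 (SE 0.25, adjusted p = 0.042, edgeR). The lower ones were CRB1 with -0.86 (SE 0.21, adjusted p = 0.019) and PATJ with -0.77 (SE 0.23, adjusted p = 0.039). In both fits 0 were called, beside 2.45% of all genes that rose and 2.85% that fell. At an unadjusted p under 0.05 the fit with pairs summed had 1 higher and 0 lower, and DESeq2 called 2 higher and 3 lower. No share of all genes is given for the unadjusted and DESeq2 counts. pard3bb, a Par complex scaffold, had the next smallest p, at a log2 change of -0.55 (SE 0.18; adjusted p = 0.052).

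In maternal null against wild type 0 of the 28 partners were called with every library, with 2 higher and 2 lower at an unadjusted p under 0.05 and 0 by DESeq2. In paternal null 5 (17.9%, where 4.7% of all genes were called higher) were higher than in wild type and 0 lower, with 12 higher and 0 lower at an unadjusted p under 0.05 and 9 higher and 0 lower by DESeq2. Between maternal and paternal null 1 was higher and 5 lower (3.57% and 17.9%, beside 3.66% and 5.61% of all genes). In each of these 3 comparisons 0 were called in both fits. At an unadjusted p under 0.05 the fit with pairs summed had 0 higher and 0 lower in maternal null, 7 and 0 in paternal null, and 0 and 2 between the crosses. The share of all genes is not given for the unadjusted and DESeq2 counts, so they are not results about the partners. In injected embryos 6 rose (ildr1b, PRKCZ, AMOT, arhgef18a, lsr and cgna) and 1 fell (crb2a), 21.4% and 3.57%, beside 16.8% and 13.5% of all genes. In the libraries labelled sperm 8 rose and 5 fell against null embryos, 28.6% and 17.9%, beside 30.7% and 31.8% of all genes. ildr1b, an angulin of tricellular corners, rose there by a log2 change of 4.41 (SE 0.14; adjusted p = 8.4e-10), and crb2a, a Crumbs polarity protein, fell by 4.75 (SE 0.28; adjusted p = 6.5e-08).

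Among 17 adherens junction and desmosome genes tested, 7 were higher and 4 lower in null than in wild type, 41.2% and 23.5%, where 16.8% and 19.4% of all genes were called. dsc2l, a desmosomal cadherin, rose and CTNNA2, an alpha-catenin, fell; CTNNA2 had a log2 change of -2.25 (SE 0.28; adjusted p = 0.0018 and 0.026 in the fits). CDH2 (N-cadherin) had a log2 change of 1.45 (SE 0.14; adjusted p = 0.00081, and 0.12 with pairs summed), nectin3b of -1.39 (SE 0.19) and ctnnb2 of -0.70 (SE 0.11). Of 17 epithelial regulators 5 were higher and 2 lower (29.4% and 11.8%), and TP63, the master factor of epidermis, rose by a log2 change of 2.22 (SE 0.21; adjusted p = 0.00082 and 0.012), as did TFAP2A in both fits. spint1b, a protease inhibitor of epithelia, had -1.66 (SE 0.20), TFAP2C 0.65 (SE 0.11) and KLF4 0.77 (SE 0.17).

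In null against wild type 16.8% of all genes were called higher and 19.4% lower, while 2.45% rose and 2.85% fell. A further list held 6 relatives with the claudin fold: pmp22a, emp1, EMP2, lim2.2, TMEM47 and TMEM204. Of these 2 were higher in null and 1 lower, 33.3% and 16.7%. The higher ones were EMP2 (log2 change 1.47, SE 0.32) and pmp22a (1.30, SE 0.29). TMEM47 was lower (-1.26, SE 0.26), and TMEM204 was not called (-1.06, SE 0.60). Of the enveloping layer markers 13 of 14 were higher, 1 was lower and 8 rose. They were led by agr1 with a log2 change of 3.70 (SE 0.13) and krt99 with 3.05 (SE 0.13). krt17 had 2.71 (SE 0.10) and anxa1b 2.54 (SE 0.11). Of the yolk syncytial layer markers 9 of 13 were higher, 1 was lower and 6 rose. Among those that rose were apoa1a with 2.70 (SE 0.35), tfa with 2.43 (SE 0.26), apoa2 with 2.35 (SE 0.24) and PLA2G12B with 2.34 (SE 0.25). mxtx2 stood at 6.9 and 2.07 CPM in wild type against 1.32 and 1.27 in null. mxtx1 stood at 23.6 and 15.9 CPM in wild type against 21.5 and 22.5 in null. The median log2 change was 1.92 over the enveloping layer markers and 1.22 over the yolk syncytial layer markers, against 0.14 over the tight junction partners and -0.03 over all genes. Oocyte and maternal markers were lower in 8 of 9 and 1, zp3c, fell (-2.05, SE 0.21); zp3b had -0.65 (SE 0.09), buc -1.03 (SE 0.19) and bmp15 -1.94 (SE 0.37).

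The remaining marker lists held few genes above the filter on low counts in the shield fit. In null against wild type 16.8% of all genes were called higher and 19.4% lower with every library. In both fits 2.45% rose and 2.85% fell. With so few genes tested, the counts below are not results about these lists. Of 10 sperm and flagellum markers tested in null against wild type 1 was higher (CCDC39, log2 change 1.46, SE 0.31) and 1 lower (spata22, -1.70, SE 0.37), while SPATA4 (-0.40, SE 0.22) and spag17 (0.34, SE 0.20) were not called. Of 5 genes of testis somatic cells 2 were higher (hsd3b1, 1.60, SE 0.42; amh, 1.26, SE 0.37) and 1 lower (CYP17A1, -0.98, SE 0.21), and cyp11c1 was not called (-0.42, SE 0.22). Of 5 blood and muscle genes myhz2, a fast muscle myosin, rose to 1.71 and 1.51 CPM from 0.119 and 0 (adjusted p = 0.0027 and 0.00082 in the fits, edgeR) and alas2 was higher (1.17, SE 0.27), while ckmb (-0.76, SE 0.27) and ckma (-0.73, SE 0.43) were not called. In the libraries labelled sperm against null embryos 3 of 7 testis somatic genes rose (inha, CYP17A1 and gsdf) and 1 fell (cyp11c1), 42.9% and 14.3%. Of 6 blood and muscle genes 1 rose (hbaa1) and 1 fell (myhz2), 16.7% each. Of all genes 30.7% rose and 31.8% fell in that comparison.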

How the data were processed

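The deposited values are raw read counts for Ensembl genes, not normalized, per the file headers. Novoalign 2.8 and DESeq2 are named in the submitters' processing notes; counter, annotation release and strand setting were not given in the sources used here. Libraries were stranded TruSeq after Ribo-Zero Gold, from total RNA, per the labels' protocols. No gene had a maximum under 10 counts. Symbols were found for 20669 of 22737 identifiers (90.9%). Counts were tested in edgeR 4.0.16 (R 4.3.3) with TMM scaling and filterByExpr, using its quasi-likelihood test in the robust form and Benjamini-Hochberg adjustment over all genes tested at 0.05. The 8 shield libraries gave 1 fit (4 residual degrees of freedom) and all 12 another (6). In the fits with near-identical pairs (chi-square per degree of freedom under 2 over genes with at least 20 counts) summed to 1 sample, 1 and 2 residual degrees of freedom remained, and among shield samples the spread then comes from wild type alone. Each SE is the size of the log2 change divided by the square root of its F statistic in the fit of every library. It is thus derived from the test, and it can understate the spread between samples. The scripts were tested on simulated data. Totals of 13.5 to 47.7 M counts make counting error small except for genes of a few counts. Pooled levels divide a group's summed counts by its summed totals. Folds between groups are ratios of pooled levels without TMM scaling, while log2 changes come from the scaled fits. The symbol rule takes 2 further genes that are not reported here. The members and lists were chosen with earlier results of these data known. Values in every library are given for 32 members. These are members called in both fits in any comparison, the 10 highest at the shield stage, and every tjp and ocln gene reported. They also include the 3 highest in injected embryos and the 3 highest in the libraries labelled sperm. Values are given in part for cldn1, cldn10d and cldn29, and others are given by count and range. For each further list the 4 genes with the smallest p in null against wild type are given. CLDN5 on chromosome 10, cldn1, cldn10d, cldn29 and CLDN12 were named after their values were seen. Alternatives were RLE size factors, no filter, DESeq2 1.42.0, a replicate block, only the groups compared, and leaving out each library; lower-case symbols alone were chosen after seeing the data.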

Additional observations from a re-analysis of the deposited data

How the results depend on the processing

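Counts of members called (edgeR) are given against 10, 4, 3, 4, 22 and 32 in null, maternal null and paternal null against wild type, maternal against paternal null, injected embryos against wild type, and the libraries labelled sperm against null. The share of all genes called is not given here for the alternatives, so their counts are not results about the members. With near-identical pairs summed they were 2, 1, 0, 1, 8 and 26. With only the groups compared they were 2, 0, 0, 21, 10 and 33. The 21 came from a fit of near-identical pairs alone, whose spread was little more than counting noise. DESeq2 gave 13, 5, 8, 10, 22 and 33. RLE size factors changed none of the counts, and no filter gave 10, 3, 4, 6, 22 and 33. Leaving out 1 library gave 3 to 25, 0 to 26, 0 to 24, 0 to 0, 15 to 25 and 28 to 33. Lower-case symbols alone (28 genes, chosen after seeing the data) gave 5, 3, 2, 4, 16 and 22. With a replicate block they were 9, 1, 1, 2, 21 and 32. Same-numbered shield libraries had correlations of deviations between -0.014 and 0.022 over 6 pairs of groups. Since the null, maternal null and paternal null pairs differed by little more than counting noise, this cannot tell whether the numbers pair libraries. In 2 cases a called member changed sign, cldnb (0.108 without wild-type replicate 1, -1.432 without replicate 2) and CLDN23 (0.205 and -2.024) in injected embryos against wild type; over all called members and alternatives, 596 values kept direction and call and 148 kept direction only. The cause of these moves was not tested, except that leaving out a wild-type library leaves a spread set by near-identical pairs. Both wild-type libraries, with 25.1 and 13.5 M counts, decide every shield contrast with wild type.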
